A study of Schizosaccharomyces pombe with 18 samples.

Results

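The genes described here make ribosomes and tRNA. They are 46 *S. pombe* probe sets, each for a different gene, of 2937 *S. pombe* probe sets with a gene name on the array. A probe set was taken as a member where its gene symbol in the array annotation was a stem of the nucleolar or polymerase nomenclature (nop, utp, rrp, nog, noc, gar, fib, nuc, rpa, rpc, rix, tsr, cgr, sof or krr) followed by a digit. The rule reads symbols only, but it was set with earlier results of these data known. By role the members are 6 subunits of RNA polymerase I, 10 of RNA polymerase III, 3 shared by these polymerases, 3 proteins of small nucleolar ribonucleoproteins (snoRNPs), 10 factors of the small ribosomal subunit, 7 of the large subunit, 3 exosome subunits and 3 other nucleolar proteins. The last member, *nuc2*, encodes a subunit of the anaphase-promoting complex and has no part in ribosome synthesis, so the name of the group held for 45 of 46 members.

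In fission yeast, as in other eukaryotes, RNA polymerase I transcribes the large precursor of ribosomal RNA in the nucleolus, and RNA polymerase III transcribes 5S rRNA and tRNA. The precursor is modified by snoRNPs, folded and cut within the small-subunit processome, and the subunits are then matured by further assembly factors, while the exosome trims and degrades RNA. Ribosome synthesis takes a large part of the resources of a growing cell, and genes for it are known as a class that yeasts turn down when nutrients run out.

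RNA of WT, *rpl32-1* and *rpl32-2* cells was measured in log phase (OD600 of 0.5) and in early stationary phase (OD600 of 10, written ES), with 3 arrays for each of 6 groups, which the labels give as biological replicates. All cells were of strain SP-Q01 grown in EMM2 medium, and all carried a plasmid. WT cells carried the empty plasmid, and *rpl32-1* and *rpl32-2* cells carried the same plasmid with the named gene for a paralog of ribosomal protein L32, to overexpress it. The labels name this plasmid pESP3 and the study's methods name pREP3X.

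Levels are log2 values, quantile-normalized over the 2937 probe sets, so that a level is relative to all other *S. pombe* genes on the array and says nothing of total RNA per cell. A gene was called where it changed 2-fold or more (1 on the log2 scale) and the adjusted p of limma, by Benjamini-Hochberg, was below 0.05. The share of all probe sets with an unadjusted p under 0.05 was not counted. Counts of members at that cut are therefore no result about the group. The deposited values of the 18 arrays fell into 5 sets of unlike distribution that run across the groups. On WT ES array 3 and *rpl32-1* log array 3, 21.7% and 18.7% of *S. pombe* probe sets did not pass the background of the array, against 0.715% to 4.70% on the other arrays. Of the 46 members 38 were above background on all 18 arrays. The others were *nuc2*, dim on both of these arrays, and *rpa49*, *rpa34*, *rpc17*, *rpc11*, *rrp46*, *rrp6* and *rrp8*, dim on WT ES array 3 only, so that their WT ES values rest on 2 of 3 arrays above background. As a check of specificity, 77 probe sets of *S. cerevisiae* whose symbols follow the same rule were compared with the members. Their median deposited level was 2.99 to 4.23 per array, while that of the members was 8.54 to 11.5. Of the 77 probe sets 2 or 3 passed background on each array. Background was itself set from the *S. cerevisiae* probe sets of the array, so a small count follows from its definition and is no check of specificity.

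The labels were checked against the introduced genes. The *rpl32-1* probe set (*rpl3201*) read 14.18, 14.11 and 14.37 on the *rpl32-1* log arrays and 13.54, 13.58 and 14.37 on the WT log arrays, which overlap, and 14.25, 13.55 and 11.68 on the *rpl32-1* ES arrays against 13.48, 13.61 and 14.29 in WT ES, so that ES array 3 was well below WT and also read 8.96 for *rpl3202*. The *rpl32-2* probe set (*rpl3202*) read 13.79, 10.88 and 8.40 on the log arrays labelled *rpl32-2* and 13.46, 8.80 and 7.72 on the ES arrays, while the 6 WT arrays lay between 13.50 and 13.78. Neither introduced gene was thus clearly above WT on the arrays said to overexpress it, and several of those arrays were well below WT. Both probe sets already read 13.48 or more on every WT array, where the median of all probe sets was 9.99. A rise may have had little room to show, which was not tested. By QPCR the study reported a raised mRNA level of each introduced gene in its strain in both phases. Where the probes lie relative to the plasmid insert was not examined. Given these array readings, the groups are called the arrays labelled *rpl32-1* and *rpl32-2*. On ES arrays 1 and 2 labelled *rpl32-2*, the cell separation genes *eng1* and *adg1* were at the level of log phase, as described with the results they touch.

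**Figure D1:**
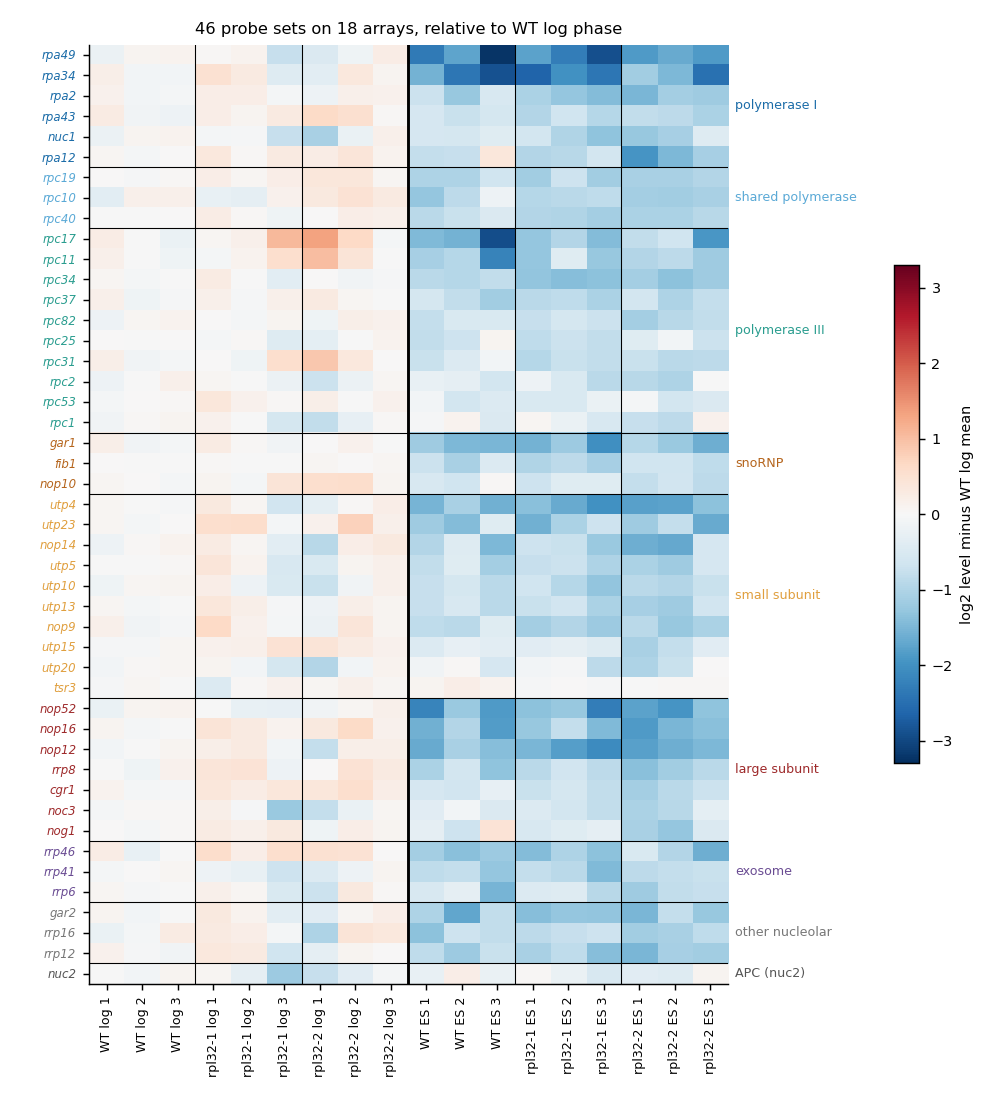
The heat map shows the log2 level of the 46 probe sets (rows, grouped by role) on the 18 arrays (columns, log phase left and ES right of the thick line), minus the mean of the 3 WT log arrays. Blue fills most of the right part in each of the 3 strains, with *tsr3*, *rpc1*, *utp20* and *nuc2* among the palest rows.

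In WT cells 286 of all 2937 probe sets were called higher in ES than in log phase, and 0 of the 46 members were. Of the members 11 were called lower, where 9.09% of all probe sets were. They were *rpa49* and *rpa34* of polymerase I, *rpc17* and *rpc11* of polymerase III, *nop52*, *nop16* and *nop12* of the large subunit pathway, *utp4* of the small subunit pathway, *gar1* of the H/ACA snoRNP, *rrp46* of the exosome and *gar2*, which encodes a nucleolin-like protein. The median change of the members was −0.78 (log2), against −0.07 for all probe sets, and the estimate was below 0 for 45 of 46. For 36 members every WT ES array was below every WT log array, where 32.6% of all probe sets had this order. Without WT ES array 3, 16 members were called lower, where 257 of all probe sets were. On the values as deposited, whose array medians are unequal, limma called 0 members in WT, where 29 of all probe sets were called lower. Of the members 28 had an unadjusted p under 0.05 by limma, and the smallest adjusted p was 0.0705. The median of the members was still −1.28 there, against −0.65 for all probe sets. The same values with the distribution sets as a block gave 12 calls of members. The number of all probe sets called in that fit is not given here, so the count is no result about the group.

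The largest changes in WT were those of the 2 subunits that form a heterodimer on polymerase I. The level of *rpa49* was 10.86, 11.13 and 11.15 on the WT log arrays and 8.71, 9.31 and 7.81 on the ES arrays, a fall of 5.43-fold (log2 change −2.44, SE 0.35, adjusted p 0.000102). Its partner *rpa34* went from 11.19, 10.90 and 10.91 to 9.44, 8.61 and 8.13, a fall of 4.82-fold (−2.27, SE 0.36, adjusted p 0.000211). Neither gene had an ES array near the log arrays. Without WT ES array 3, on which both were below background, the changes were −2.04 and −1.97 and both remained called.

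The genes of the catalytic core of polymerase I were not called. The level of *nuc1*, which encodes the largest subunit, was 11.82, 12.09 and 12.12 in log phase against 11.46, 11.44 and 11.61 in ES (−0.50, SE 0.30, adjusted p 0.187). For *rpa2*, the second largest subunit, the values were 10.93, 10.69 and 10.73 against 10.07, 9.52 and 10.27 (−0.83, SE 0.19, adjusted p 0.00235). Both genes were lower on every ES array than on every log array, but neither reached the 2-fold limit. The small subunit gene *rpa12* stood at 11.01, 10.89 and 10.97 in log phase and at 10.17, 10.19 and 11.34 in ES, so that the dim array 3 alone was above all log arrays, and without that array the change was −0.78 (adjusted p 0.00715) in place of −0.39 (adjusted p 0.251). The stalk subunit gene *rpa43* was at −0.63 (adjusted p 0.00634).

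The genes shared between polymerases lay between these extremes. Those for the subunits common to polymerases I and III, *rpc19* and *rpc40*, were at −0.90 and −0.70 (adjusted p 0.000206 and 0.000538), and *rpc10*, which serves all 3 nuclear polymerases, was at −0.77. None was called with all arrays, while *rpc19* and *rpc10* were called without WT ES array 3, at −1.02 and −1.08.

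Of the 10 polymerase III genes 2 were called, both for small subunits. The level of *rpc17*, a stalk subunit, was 8.10, 7.86 and 7.64 in log phase against 6.40, 6.30 and 4.95 in ES (−1.99, SE 0.44, adjusted p 0.00215; −1.52 without WT ES array 3). The small subunit gene *rpc11* went from 10.99, 10.82 and 10.68 to 9.74, 9.89 and 8.62 (−1.41, SE 0.33, adjusted p 0.00332; −1.02 without that array). In both, array 3 was the lowest of the ES arrays. By contrast *rpc1*, the largest subunit, read 10.71, 10.87 and 10.91 in log phase against 10.79, 10.94 and 10.34 in ES, and its groups overlapped (−0.14, 95% interval −0.74 to 0.47, and 0.17 with the distribution sets as a block). The second largest subunit gene *rpc2* was at −0.39 (adjusted p 0.233). The other 6 polymerase III genes ranged from −0.88 (*rpc34*) to −0.38 (*rpc53*) and none was called.

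For the snoRNP proteins, *gar1* read 12.77, 12.45 and 12.50 in log phase against 11.40, 11.08 and 11.06 in ES (−1.39, SE 0.20, adjusted p 0.000105) and its groups lay well apart. The gene for fibrillarin (*fib1*), the methyltransferase of C/D snoRNPs, had levels of 12.81, 12.77 and 12.79 in log phase against 12.07, 11.71 and 12.34 in ES, a difference of −0.75 (SE 0.13, adjusted p 0.000459) that stayed under 2-fold with no overlap. The third snoRNP gene, *nop10*, was at −0.39 with overlapping groups.

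Of the 10 small subunit genes only *utp4* was called in WT. Its level was 10.68, 10.60 and 10.57 in log phase against 9.08, 9.53 and 9.03 in ES (−1.40, SE 0.24, adjusted p 0.000336). The next largest estimates were those of *utp23* (−1.0, adjusted p 0.0156) and *nop14* (−0.96, adjusted p 0.0416), just short of 2-fold. At the other end *tsr3*, which encodes an enzyme that modifies 18S rRNA, read 10.10, 10.20 and 10.13 in log phase against 10.23, 10.37 and 10.27 in ES. It was the only member with an estimate above 0 (0.15, 95% interval −0.13 to 0.42), and its ES arrays lay above its log arrays.

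Of the 7 large subunit genes 3 were called. The level of *nop52* was 10.98, 11.28 and 11.31 in log phase against 9.02, 9.96 and 9.33 in ES (−1.75, SE 0.27, adjusted p 0.000158). That of *nop16* was 10.69, 10.54 and 10.60 against 9.04, 9.64 and 8.77 (−1.46), and that of *nop12* was 10.33, 10.42 and 10.51 against 8.76, 9.36 and 9.0 (−1.38). In all 3 genes ES array 2 was the highest of its group and still below the log arrays. The rRNA methyltransferase gene *rrp8* was at −0.99 (adjusted p 0.00167), while *nog1*, a GTPase of subunit assembly, was at −0.17, with ES values of 11.45, 11.07 and 12.21 around log values of 11.67 to 11.79.

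The exosome ring gene *rrp46* went from 10.15, 9.67 and 9.90 to 8.79, 8.54 and 8.70 (−1.23, SE 0.24, adjusted p 0.000896), while the ring gene *rrp41* and the nuclear exonuclease gene *rrp6* were at −0.97 and −0.78. The level of *gar2* was 12, 11.82 and 11.88 in log phase against 10.89, 10.19 and 11.09 in ES (−1.18, SE 0.24, adjusted p 0.00145). Outside ribosome synthesis, *nuc2* of the anaphase-promoting complex was at −0.09 (95% interval −0.68 to 0.50), and at 0.18 with the distribution sets as a block.

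**Figure D2:**
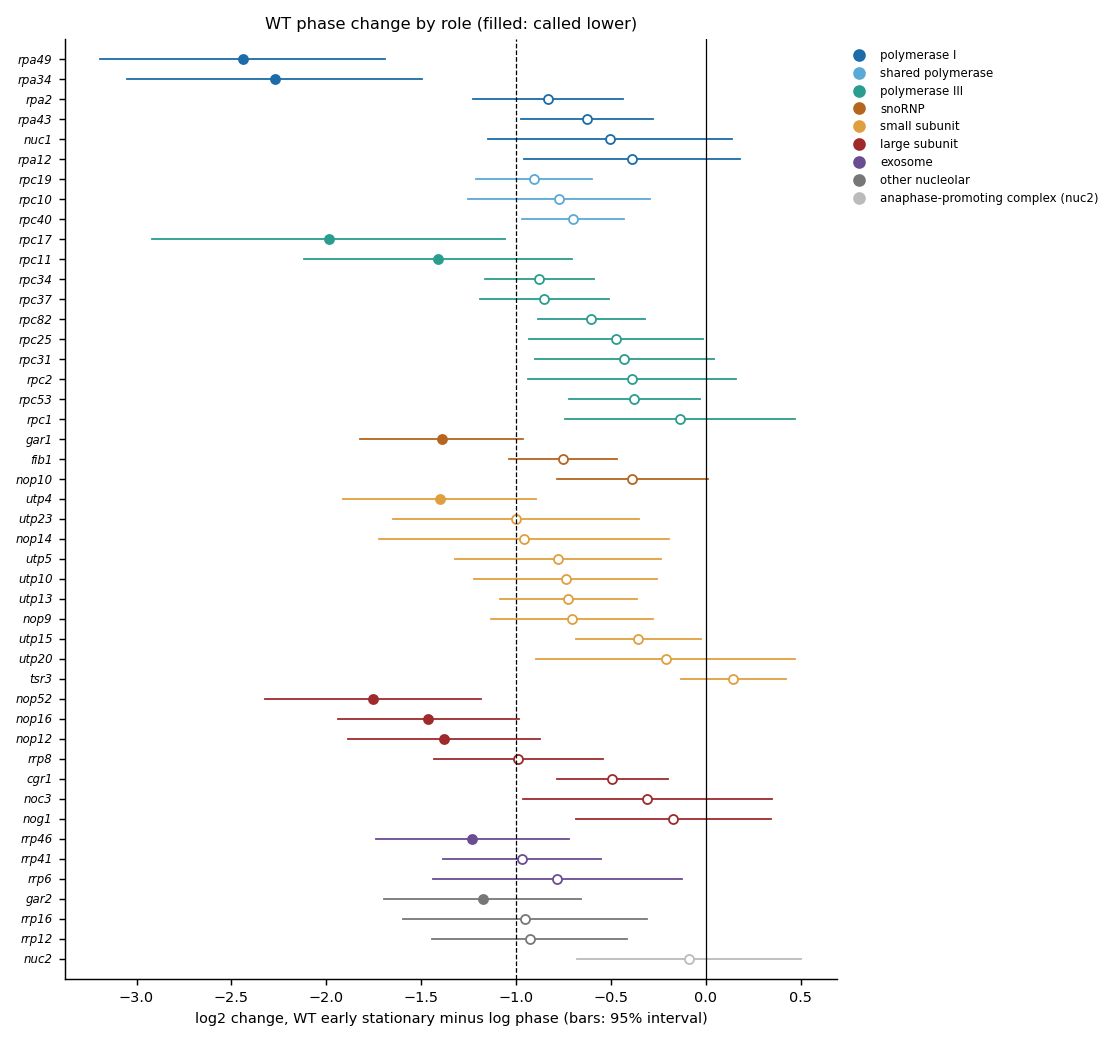
Each point is the log2 change of a gene between WT ES and WT log phase with its 95% interval, coloured and ordered by role, and filled points are the 11 called lower. The solid line marks no change and the dashed line 2-fold lower. *rpa49* and *rpa34* lie farthest left, and *tsr3* is the only point right of 0.

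The comparison was repeated between single arrays of the same distribution set, on deposited values and with no replicate check. ES array 1 against log array 1 had 14 members at least 2-fold lower, where 9.23% of all probe sets were. ES array 2 had 9 against log array 2, where 7.15% of all were, and 12 against log array 3, where 6.88% were. In these 3 pairs *rpa49* differed by −1.92, −1.61 and −1.64 and *rpa34* by −1.66, −1.97 and −1.97, while *rpc1* differed by 0.09, 0.06 and 0.03.

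Genes of the same pathway that the naming rule leaves out were examined in the same comparison in WT. Of 98 such genes listed, 50 had a probe set, 18 were called lower and 1 higher, with a median of −0.77. Of all 2937 probe sets 9.09% were called lower and 286 were called higher. The list was written with earlier results of these data known. The smallest adjusted p values were those of *dbp3* (−2.47) and *rrs1* (−1.59), which act in large subunit assembly, and *dim1* (−1.36), a name that in fission yeast belongs to a splicing factor. The gene called higher was *maf1*, the repressor of polymerase III (1.03, SE 0.34, adjusted p 0.0238). The polymerase III initiation factor genes *brf1* and *sfc4* had estimates of 0.83 and 1.0 (adjusted p 0.00384 and 0.0184). Neither was called, with *brf1* below the 2-fold limit and *sfc4* just short of it.

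For the ribosomal proteins themselves, the 121 probe sets had a median change of −0.17 and a range of −0.74 to 0.23, inside the 2-fold limit throughout. Their median level per array was 13.19 to 13.53, far above the median of all probe sets (9.99). It was 13.51 on each of the 3 WT log arrays. Quantile normalization gives the highest ranks nearly the same values on every array, so a fall of these genes may be understated. As deposited, the median change of the ribosomal protein genes in WT was −0.52, against −0.65 for all probe sets. The 11 polymerase II genes had a median change of −0.58 in WT, and 9 of them had estimates below 0. Only *rpb8* was called lower (−1.82), which encodes a subunit of all 3 polymerases. The large subunit genes *rpb1* and *rpb2* were the 2 with estimates above 0, at 0.82 and 0.65. On the arrays labelled *rpl32-1* and *rpl32-2* the medians of the polymerase II genes were −0.87 and −0.42. No test compared these lists with the members.

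Many of the members were also called lower in ES with both other labels. On the arrays labelled *rpl32-1* 23 members were called lower and 0 higher (11.1% of all probe sets were lower and 344 of 2937 higher). The median was −1.0 against −0.09 for all. No log and ES arrays with this label shared a distribution set, so within the label phase cannot be told apart from set. On the arrays labelled *rpl32-2* 29 were called lower and 0 higher (6.09% of all were lower and 168 of 2937 higher), with a median of −1.16 against −0.04. ES arrays lay wholly below log arrays for 38 members on the arrays labelled *rpl32-1* (35.2% of all) and for 37 on the arrays labelled *rpl32-2* (25.5% of all). All 11 genes called in WT were called in both other strains, 11 more were called in both but not in WT, 8 were called in only 1 of them and 16 in no strain. On the values as deposited limma called 0 members in either strain, where 34 and 1 of all probe sets were called lower. By the same test 21 and 1 members had an unadjusted p under 0.05. Their medians were then −1.10 and −0.40, against −0.13 and 0.75 for all probe sets. The same values with the sets as a block gave 24 and 20 calls of members, and the number of all probe sets called there is not given here. Without ES arrays 1 and 2 labelled *rpl32-2*, ES array 3 is alone in its group and is assumed to vary as the arrays of the other groups do. The calls of that fit are therefore not counted here.

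Of the 6 polymerase I genes 5 were called on the arrays labelled *rpl32-1*. The level of *rpa34* was 11.50, 11.30 and 10.58 in log phase against 8.36, 9.01 and 8.61 in ES (−2.46, SE 0.36, adjusted p 8.15e-05), that of *rpa49* was 11.09, 11.17 and 10.29 against 9.28, 8.78 and 8.15 (−2.11), and *rpa2* was at −1.38. The same 5 genes were called on the arrays labelled *rpl32-2*, with *rpa12* at 11.21, 11.35 and 11.08 in log phase against 9.01, 9.49 and 9.85 in ES (−1.76, SE 0.27, adjusted p 0.000218). Of the 6, *nuc1* was called in no strain (−0.68 on the arrays labelled *rpl32-1*, −0.54 on the arrays labelled *rpl32-2*).

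For the other roles, the shared polymerase genes *rpc19* and *rpc40* were called in both strains (−1.16 and −1.08, then −1.31 and −1.14), and 4 and 5 of 10 polymerase III genes were called. The stalk subunit gene *rpc17* was at −1.65 and −1.76. The large subunit gene *nop12* read 10.62, 10.72 and 10.34 against 8.91, 8.59 and 8.34 on the arrays labelled *rpl32-1* (−1.95, SE 0.24, adjusted p 1.71e-05). The gene *nop16* read 10.93, 11.25 and 10.76 against 8.74, 9.11 and 9.24 with the label *rpl32-2* (−1.95, SE 0.22, adjusted p 3.85e-05). Small subunit genes were called in 3 and 6 of 10 cases, among them *utp4* (−1.60 and −1.62) and *utp23* (−1.46 and −1.57).

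Among the genes called in no strain were the polymerase III core genes *rpc1* (−0.07 and −0.15) and *rpc2* (−0.46 and −0.38), the processome gene *utp20* (−0.14 and −0.26) and *noc3*, which acts in large subunit assembly (−0.26 and −0.45). The genes *tsr3* (0.07 and −0.08) and *nuc2* (0.24 and 0.17) were others. On ES arrays 1 and 2 labelled *rpl32-2*, however, *rpc1* read 10.06 and 9.97 and *utp20* 10.49 and 10.77, against 10.96 and 11.52 on array 3. Log array 1 labelled *rpl32-2* was also low for both, at 10.02 and 10.53, with 10.56 and 11.41 on array 2 and 10.86 and 11.62 on array 3. The phase change of these genes in that strain thus rests on arrays that differ among themselves by more than the change.

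Whether the phase change differed between strains was tested as a difference of changes. On the arrays labelled *rpl32-1* against WT 0 members were called (0% of all). By limma 3 had an unadjusted p under 0.05, a cut for which the share of all probe sets was not counted. The largest estimates were *rpa12* (−0.66), *nop9* (−0.64) and *nop12* (−0.57), each with adjusted p 0.701. On the arrays labelled *rpl32-2* against WT 0 were called (0% of all), and 10 had an unadjusted p under 0.05, led by *rpa12* (−1.37, SE 0.38, adjusted p 0.376), *nog1* (−0.83) and *rpc31* (−0.82), of which *nog1* and *rpc31* were at 0.17 and 0.77 as deposited. The wider list of called genes in these strains is therefore not shown to be a larger change than that of WT. The call for *rpa12* turned on single arrays. Without *rpl32-2* ES array 3 the difference was −1.58 (adjusted p 0.0237), and without WT ES array 3, whose *rpa12* level was the highest of the WT arrays, it was −0.99 (adjusted p 0.580).

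**Figure D3:**
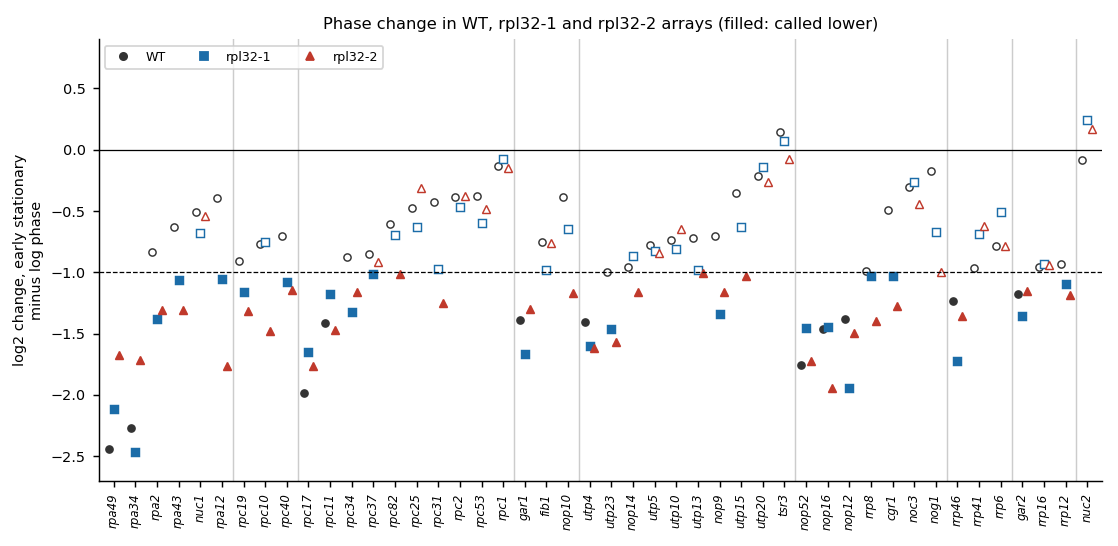
The log2 change between ES and log phase is plotted for each of the 46 genes (ordered by role, grey lines between roles) in WT (circles), *rpl32-1* (squares) and *rpl32-2* arrays (triangles), filled where called lower. The 11 genes filled in WT are filled in all 3, and squares and triangles lie below the circles for *rpa2*, *rpa43*, *rpa12*, *rpc19* and *rpc40*.

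A single pair of arrays labelled *rpl32-2* shared a distribution set, ES array 3 and log array 3. Between them 20 members were at least 2-fold lower as deposited, where 6.57% of all probe sets were. There *rpa34* differed by −2.18, *rpa49* by −1.87 and *gar1* by −1.54, and *rpc1* by 0.08.

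In log phase no member differed from WT by the test in either other strain. For the arrays labelled *rpl32-1* against WT 0 members were called (0% of all), 1 had an unadjusted p under 0.05, and the median was 0.06. The largest estimates were *nuc2* (−0.48), *rrp46* (0.45, and −0.013 as deposited) and *rpc17* (0.43, and −0.43 as deposited), with adjusted p from 0.804 to 0.892. For the arrays labelled *rpl32-2* 0 were called (0% of all), 3 had an unadjusted p under 0.05, and the median was 0.04. The largest were *rpc17* (0.63, 95% interval −0.30 to 1.56), *rpc11* (0.48) and *rpc31* (0.42), which were at −0.23, −0.030 and −0.29 as deposited. For *rpc17* the arrays labelled *rpl32-2* read 9.19, 8.53 and 7.80 and the WT arrays 8.10, 7.86 and 7.64, so that array 3 was inside the range of WT. On the arrays labelled *rpl32-2* 10 members lay above WT on every array, where 7.63% of all probe sets did, among them *nop10*, *cgr1* and *nop16* at 0.41, 0.38 and 0.37. The intervals lay within 2-fold of no change for 42 members on the arrays labelled *rpl32-1* and for 41 on the arrays labelled *rpl32-2*.

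Pairs of log arrays that share a distribution set had small differences on one side. As deposited, *rpl32-1* log array 1 was above WT log array 1 for 38 of 46 members (median 0.23). Array 3 labelled *rpl32-2* was above WT log arrays 2 and 3 for 44 and 42 members (medians 0.12 and 0.10), and no member differed 2-fold in these pairs. Over the quantile-normalized values, *rpl32-1* log arrays 1 to 3 were above the WT log mean for 39, 30 and 17 members and those labelled *rpl32-2* for 21, 34 and 40, so that the direction was not the same on every array. As deposited both medians were below 0, at −0.31 and −0.55, beside −0.47 and −0.67 for all probe sets.

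In ES 37 and 35 of the 46 estimates were below WT, with no call. For the arrays labelled *rpl32-1* 0 were called (0% of all), 3 had an unadjusted p under 0.05, and the median was −0.12. The largest estimates were *rpc17* (0.76, and 0.30 without WT ES array 3, where it was below background), *rpc34* (−0.47, SE 0.13, adjusted p 0.927) and *nuc1* (−0.47). The level of *rpc34* was 9.36, 9.25 and 9.29 against 9.77, 9.72 and 9.83 in WT, with no overlap. For the arrays labelled *rpl32-2* 0 were called (0% of all), 8 had an unadjusted p under 0.05, the median was −0.22, and 9 members lay below WT on every array (6.44% of all). As deposited the median was 0.48, beside 0.65 for all probe sets, so that its sign depends on the scaling while the median of the members is below that of all in both.

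The largest estimate on the ES arrays labelled *rpl32-2* was that of *rpa12* (−1.12, SE 0.27, adjusted p 0.0916). Its 3 levels given above, 9.01 to 9.85, lay below the WT ES levels of 10.17 to 11.34. The next were *rpc17* (0.86, adjusted p 0.270, and 0.39 without WT ES array 3) and *nog1* (−0.77, SE 0.24, adjusted p 0.112), whose levels were 10.67, 10.46 and 11.27 against 11.45, 11.07 and 12.21. Arrays 1 and 2 were the low ones for *rpa12* and *nog1*. Without *rpl32-2* ES array 3 both genes were called, *rpa12* at −1.32 (adjusted p 0.00545) and *nog1* at −1.01 (adjusted p 0.00936). Without WT ES array 3 neither was, at −0.73 (adjusted p 0.243) and −0.46 (adjusted p 0.343).

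Between the arrays labelled *rpl32-1* and *rpl32-2* 0 members were called in log phase and 0 in ES (0% of all in each), with 1 and 3 at an unadjusted p under 0.05. In log phase *rpc10* (−0.49), *rpc31* (−0.28) and *rpc11* (−0.27) had the largest estimates, and no arrays of these labels shared a distribution set. In ES they were *rpa12* (0.68, adjusted p 0.219), *rpa34* (−0.65) and *nog1* (0.52), with *rpa12* and *nog1* at −0.052 and −0.11 as deposited. The *t*-test of the study's methods with the 2-fold limit called 0 members in each of these 6 comparisons within a phase, adjusted or not.

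On ES arrays 1 and 2 labelled *rpl32-2* a few genes that mark growth were at or above the level of log phase or between the phases. They were picked from a planned list of markers after their values were seen. The median of the ribosome biogenesis genes was at or below that of ES on these arrays. The cell separation gene *eng1*, an endoglucanase, read 11.65 and 11.05 there, close to the WT log values of 11.09 to 11.49, while WT ES arrays read 7.24 to 8.63 and ES array 3 labelled *rpl32-2* read 7.50. The replication gene *cdc18* read 10.16 and 10.03, above the WT log values of 8.94 to 9.34. The glucose-repressed gene *fbp1* (fructose-1,6-bisphosphatase) was between the phases, at 9.62 and 11.83, with 7.25 to 7.78 in WT log phase and 13.81 to 14.04 in WT ES. The hexose transporter gene *ght3* was between them as well, at 8.57 and 9.57. The marker *gld1* was near ES, at 11.52 and 12.31, with 7.65 to 7.71 in WT log phase and 12.56 to 13.28 in WT ES. Not all markers were thus near log phase on these arrays. The part of these differences in the results for that label was not tested.

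On the same arrays the median level of the 46 members was 9.65 and 9.56. The WT log arrays were at 10.70, 10.68 and 10.70, the WT ES arrays at 9.83, 10.02 and 9.99, and ES array 3 labelled *rpl32-2* at 9.86. Both arrays were thus below every WT ES array. So were ES arrays 1 and 3 labelled *rpl32-1*, at 9.80 and 9.62, while array 2 of that label was at 9.93. The 50 other pathway genes stood at 9.81 and 9.59, against 9.71 to 9.83 in WT ES and 10.72 to 10.82 in WT log phase.

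**Figure D4:**
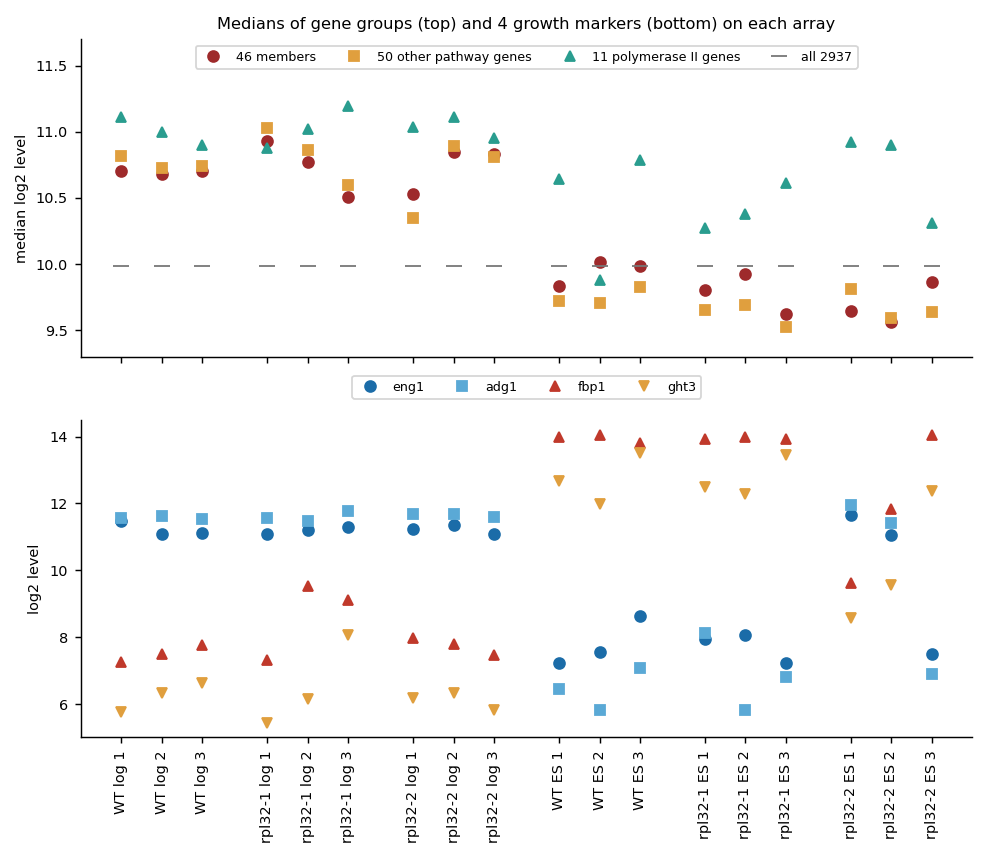
The upper panel shows the median log2 level of the 46 members, 50 other pathway genes, 11 polymerase II genes and all 2937 probe sets on each array, and the lower panel the log2 level of *eng1*, *adg1*, *fbp1* and *ght3*. On *rpl32-2* ES arrays 1 and 2 *eng1* and *adg1* are at log phase level while the members, at 9.65 and 9.56, are as low as on the other ES arrays.

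Each gene's level was also set against its WT log and WT ES means, and the genes nearer to the ES mean were counted. Of the 11 members called in WT, 9 and 10 were nearer to ES on these arrays (81.8% and 90.9%), and of all 46 members 42 and 43 were. Of all 267 probe sets called lower in WT, 115 and 121 were nearer to ES (43.1% and 45.3%), and of the 286 called higher 151 and 190 were (52.8% and 66.4%). On the other 4 ES arrays of the strains, 92.5% to 96.3% of the 267 and 9 to 11 of the 11 were nearer to ES. Of 18 other pathway genes called lower, 17 and 16 were nearer to ES on arrays 1 and 2. These counts are a description and have no test, since the genes of an array are not independent.

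The counts were similar without the dim WT array. With WT ES array 3 left out of both the reference and the call, 15 of 16 members were nearer to ES on each of the 2 arrays, beside 47.1% and 50.2% of 257 probe sets called lower. With all arrays in use, the exceptions among the 11 were *rpc17*, at 7.05 and 7.22 between WT means of 7.87 and 5.88, and *rrp46*, at 9.41 on array 1 between means of 9.91 and 8.68.

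**Figure D5:**
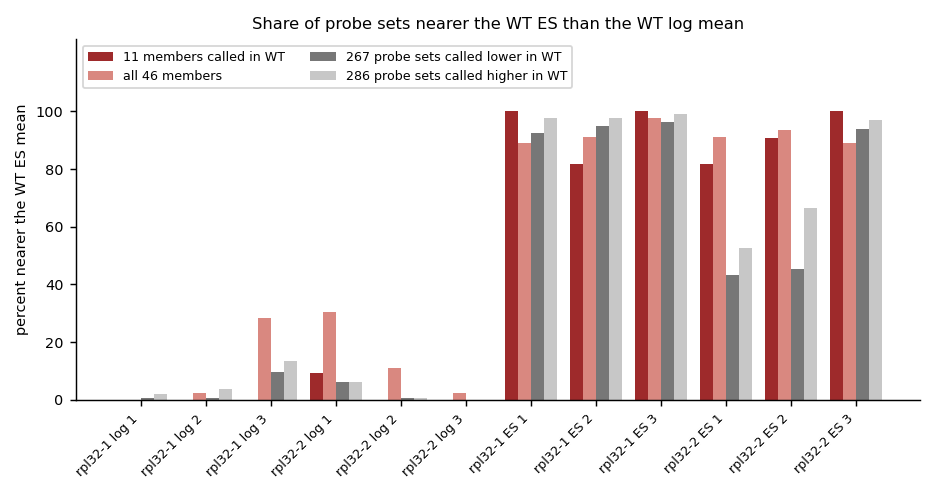
Bars give, for each of the 12 arrays of the other strains, the percent of probe sets whose level was nearer to the WT ES mean than to the WT log mean, for the 11 members called in WT, all 46 members, and all probe sets called lower (267) or higher (286) in WT. On *rpl32-2* ES arrays 1 and 2 the bars of the members are above 80 percent and those of all 267 lower probe sets are 43.1 and 45.3.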

How the data were processed

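RNA of *S. pombe* was hybridised to Affymetrix Yeast Genome 2.0 arrays, 18 in all, 3 for each of 6 groups taken from the labels. The authors deposited log2 values made by RMA (background correction, quantile normalization and probe set summary) in Partek, whose versions are not given in the sources used here. No counts exist for arrays, so the number of arrays limits the precision. The 2937 *S. pombe* probe sets with a gene name were quantile-normalized again, because the deposited distributions differed between arrays, and 2601 *S. cerevisiae* probe sets were used for background only, as their 95th percentile on each array. The sets of arrays were found by single linkage of these distributions at a distance of 0.2.

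All 6 group means were fitted together with limma 3.58.1 (R 4.3.3, statmod 1.5.0), and p-values were adjusted by Benjamini-Hochberg over 2937 probe sets. Calls needed an adjusted p under 0.05 and a log2 change of at least 1. Figures were drawn with matplotlib 3.10.9. The fit was tested on simulated data.

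The members and gene lists were chosen with earlier results of these data known. The text names every called member in WT and, in each comparison across strains, the 3 members of largest estimate. The plan also named *nuc1*, *rpa2*, *rpc1*, *fib1* and *nuc2*, the 3 other pathway genes of smallest adjusted p, and a list of growth markers. Other genes, among them *tsr3*, *rpc2*, *utp20* and the rest of the genes outside the group, were chosen after their values were seen. The counts of genes nearer to a WT phase mean and the fits without ES arrays 1 and 2 labelled *rpl32-2* or without the dim arrays were also added then. Alternatives were the deposited values, median centring, quantile normalization without the members, array weights, the sets or the replicate number as a block, a filter on low values, the methods' t-test, a stricter reading of the symbols and each array left out. The replicate numbers were not taken to pair arrays, since samples of the same number did not regularly deviate together. Arrays of the same distribution set did so more (median correlation of deviations 0.22, and −0.07 between sets), while the main fit has no term for the sets. Promoter motifs were not searched.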

Additional observations from a re-analysis of the deposited data

How the results depend on the processing

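The calls of members lower in ES were lost on deposited values, where 0 members were called in WT, arrays labelled *rpl32-1* and arrays labelled *rpl32-2*, with medians of −1.28, −1.10 and −0.40 (−0.65, −0.13 and 0.75 for all probe sets). Median centring gave 13, 23 and 28. For this setting and those that follow, the number of all probe sets called is not given here. Their counts show only how far the number of called members moved. With the adjusted p alone 31 and 37 were called in WT and on the arrays labelled *rpl32-1*, and the methods' t-test after Benjamini-Hochberg called 18 on the arrays labelled *rpl32-2*. Leaving out 1 array at a time gave 11 to 16 in WT, 19 to 26 on the arrays labelled *rpl32-1* and 25 to 32 on the arrays labelled *rpl32-2*. In ES against WT it gave 0 to 2 on these arrays, and 0 to 1 for their difference of phase change, which had 2 with array weights. The other 6 comparisons stayed at 0 throughout. With the replicate number as a block the counts were 11, 23 and 29, as without it, and 0 in the other comparisons. Numbers did not regularly pair arrays (median correlation of deviations 0.06, from −0.41 to 0.47, and a median of −0.03 for unlike numbers). Of 45 pairs with the same number 21 were above 0.1, and 9 arrays were closest to 1 of their own number. With the dim arrays left out, a choice made after seeing the data, the counts were 16, 26 and 29.

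Some single estimates changed sign, none of them called. In WT the phase change of *rpc1* was 0.17 with the sets as a block, from −0.26 to 0.037 with 1 array left out, 0.037 without both dim arrays, and 0.14 as deposited with the sets as a block, and that of *nuc2* was 0.18 and 0.21 with the sets as a block, on normalized and deposited values. As deposited, *rrp46* and *rpc17* were at −0.013 and −0.43 on the log arrays labelled *rpl32-1*, and *rpc17*, *rpc11* and *rpc31* at −0.23, −0.030 and −0.29 on the log arrays labelled *rpl32-2*. Between the strains in ES, *rpa12* and *nog1* were at −0.052 and −0.11 as deposited, and *rpa34* at 0.12 without ES arrays 1 and 2 labelled *rpl32-2*. Between them in log phase, *rpc11* was at 0.25 with the sets as a block and 0.68 as deposited with that block, where *rpc31* was at 0.014. Differences of phase change as deposited were 0.13 for *nop12* on the arrays labelled *rpl32-1*, and 0.17 for *nog1* and 0.77 for *rpc31* on the arrays labelled *rpl32-2*. Signal near background on WT ES array 3 limits the size of the change for *rpa49*, *rpa34*, *rpc17*, *rpc11* and *rrp46*. The called gene *nop16* was just above background there, at 6.45 against 6.39 as deposited. The causes were not tested.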
